A study of Mus musculus with 4 samples.

Results

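The genes Tnfsf11, Tnfrsf11b and Csf1 encode RANKL, OPG and M-CSF, through which osteoblasts regulate osteoclasts. Runx2 peaks were collected around them from a ChIP-Seq study of MC3T3-E1 cells, a clonal preosteoblast line from mouse calvaria (labelled C57BL/6), during differentiation in culture. Chromatin was immunoprecipitated with a Runx2 antibody from preosteoblasts at day 0 (proliferation), from matrix-depositing osteoblasts at day 9 and from mineralizing osteoblasts at day 28. Input DNA from day 9 cells, with no antibody, was the common control. All peaks that overlapped the gene body of a member, or the 100 kb on either side of it, by at least 1 bp were taken. They numbered 28 of the 25457 peaks of day 0, 33 of the 60596 of day 9 and 32 of the 40330 of day 28. Peaks of the 3 days that shared at least 1 bp were merged, which left 43 of the 67703 regions of the series. The files hold binding and no RNA, so the stage of the cells could not be checked against expressed markers.

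RANKL is a membrane-bound or secreted ligand that binds its receptor RANK on osteoclast precursors and drives their differentiation into bone-resorbing cells. OPG is a secreted decoy receptor that captures RANKL, so the balance of both proteins sets the rate of resorption. M-CSF, the ligand of the receptor tyrosine kinase Csf1r, keeps osteoclast precursors alive and proliferating. Osteoblasts, stromal cells and osteocytes produce all of these signals, and hormones such as vitamin D and parathyroid hormone raise RANKL through enhancers that lie far upstream of Tnfsf11. Runx2 is the runt-domain transcription factor required for osteoblast formation, and it binds the core sequence TGTGGT.

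The 3 genes lie on the minus strand of mm9 (NCBIM37). Tnfsf11 (ENSMUSG00000022015) spans 30.6 kb at chr14:78677252-78707850, Tnfrsf11b (ENSMUSG00000063727) spans 27.87 kb at chr15:54082174-54110039, and Csf1 (ENSMUSG00000014599) spans 19.42 kb at chr3:107543966-107563387. No other protein-coding gene lies in the Tnfsf11 window, which holds the small RNA genes Mir1971, AC126690.1 and AC126690.2. The Tnfrsf11b window also holds Gm5215, and the Csf1 window also holds Ahcyl1, which encodes a protein that binds the inositol trisphosphate receptor. Distances below run along the gene from its outermost annotated start site, with upstream and downstream as the gene is transcribed. The score of a peak is 10 times the negative log10 of its MACS p-value and depends on read depth, so it is read as a percentile, the percent of peaks of the same list that scored lower. A score of 3100 is tied between many peaks and stands for percentile 99.17 at day 0, 95.2 at day 9 and 95.96 at day 28. Each day has 1 list called on 2 pooled replicate libraries. The lists hold no read counts, the depth behind a peak is therefore unknown here, and differences between days carry no replicate error and no test.

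The sequences at the centres of the regions on which the results turn are given first. They are read from the NCBIM37 reference, 5′ to 3′ along the gene, around the centre of the peak with the highest percentile, with TGTGGT and the related TGCGGT in capitals (ACCACA and ACCGCA on the opposite strand). The window was lengthened to 300 bases where this brought in the nearest TGTGGT, and for the Tnfrsf11b start site the 300 bases before it are shown. The Tnfsf11 regions are the 3 upstream ones and the intronic one with the core sequence nearer to its centre.
Tnfsf11 75.4 kb upstream, chr14:78783090-78783389, minus strand: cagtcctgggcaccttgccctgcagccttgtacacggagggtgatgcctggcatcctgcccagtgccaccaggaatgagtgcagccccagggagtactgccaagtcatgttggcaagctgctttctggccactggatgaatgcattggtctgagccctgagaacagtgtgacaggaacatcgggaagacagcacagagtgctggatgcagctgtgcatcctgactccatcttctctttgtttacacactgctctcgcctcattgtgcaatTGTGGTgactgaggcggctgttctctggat
Tnfsf11 22.7 kb upstream, chr14:78730392-78730592, minus strand: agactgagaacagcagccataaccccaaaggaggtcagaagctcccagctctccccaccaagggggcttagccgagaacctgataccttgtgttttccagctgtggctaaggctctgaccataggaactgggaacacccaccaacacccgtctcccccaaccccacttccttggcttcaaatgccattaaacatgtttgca
Tnfsf11 22.0 kb upstream, chr14:78729744-78729944, minus strand: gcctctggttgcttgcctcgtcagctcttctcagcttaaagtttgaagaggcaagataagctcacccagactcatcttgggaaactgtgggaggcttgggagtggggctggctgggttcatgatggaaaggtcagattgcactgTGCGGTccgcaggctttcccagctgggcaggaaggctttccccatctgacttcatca
Tnfsf11 intron, 10.5 kb downstream of the start site, chr14:78697213-78697413, minus strand: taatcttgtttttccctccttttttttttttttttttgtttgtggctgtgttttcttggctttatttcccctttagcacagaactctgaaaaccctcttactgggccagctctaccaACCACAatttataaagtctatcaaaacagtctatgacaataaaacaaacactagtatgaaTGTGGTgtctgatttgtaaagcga
The Tnfrsf11b sequences are the promoter and the upstream region with the core sequence nearest to its centre.
Tnfrsf11b promoter, chr15:54110040-54110339, minus strand: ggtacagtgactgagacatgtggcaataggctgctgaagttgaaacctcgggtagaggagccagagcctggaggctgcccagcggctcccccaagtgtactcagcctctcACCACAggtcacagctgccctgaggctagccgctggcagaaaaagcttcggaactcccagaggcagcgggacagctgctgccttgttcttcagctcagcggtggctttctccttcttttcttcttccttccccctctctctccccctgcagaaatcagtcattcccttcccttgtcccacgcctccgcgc
Tnfrsf11b 75.5 kb upstream, chr15:54185446-54185646, minus strand: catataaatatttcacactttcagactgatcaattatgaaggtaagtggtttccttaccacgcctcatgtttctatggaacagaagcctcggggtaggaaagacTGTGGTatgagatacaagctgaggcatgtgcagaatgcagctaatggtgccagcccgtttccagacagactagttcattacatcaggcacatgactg
The Csf1 sequences are the 2 upstream regions that reach a score of 3100 and the region at the end of intron 8.
Csf1 69.3 kb upstream, chr3:107632615-107632815, minus strand: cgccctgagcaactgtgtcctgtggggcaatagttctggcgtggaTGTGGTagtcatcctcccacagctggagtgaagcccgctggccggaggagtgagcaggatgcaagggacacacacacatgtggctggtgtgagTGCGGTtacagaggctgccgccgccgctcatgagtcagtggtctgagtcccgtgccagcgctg
Csf1 94.9 kb upstream, chr3:107658263-107658463, minus strand: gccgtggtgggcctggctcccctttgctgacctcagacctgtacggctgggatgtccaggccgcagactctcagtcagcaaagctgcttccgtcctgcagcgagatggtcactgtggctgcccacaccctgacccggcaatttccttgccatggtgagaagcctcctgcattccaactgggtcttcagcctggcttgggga
Csf1 17.2 kb downstream of the start site, chr3:107546068-107546268, minus strand: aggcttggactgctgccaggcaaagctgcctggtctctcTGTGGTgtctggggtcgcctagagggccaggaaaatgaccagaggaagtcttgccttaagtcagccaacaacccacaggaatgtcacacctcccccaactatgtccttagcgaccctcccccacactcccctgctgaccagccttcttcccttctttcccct

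Csf1 held most of the Runx2 peaks. Its window had 23, 26 and 23 of them on days 0, 9 and 28. The Tnfsf11 window had 1, 5 and 4 on the same days, and the Tnfrsf11b window had 4, 2 and 5. The spacing and the percentile of these peaks are drawn in the map of the 3 windows. A peak somewhere in such a window was common, since 80.5% of the 22380 protein-coding genes had one at day 0, 87.9% at day 9 and 83.6% at day 28.

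**Figure D1:**
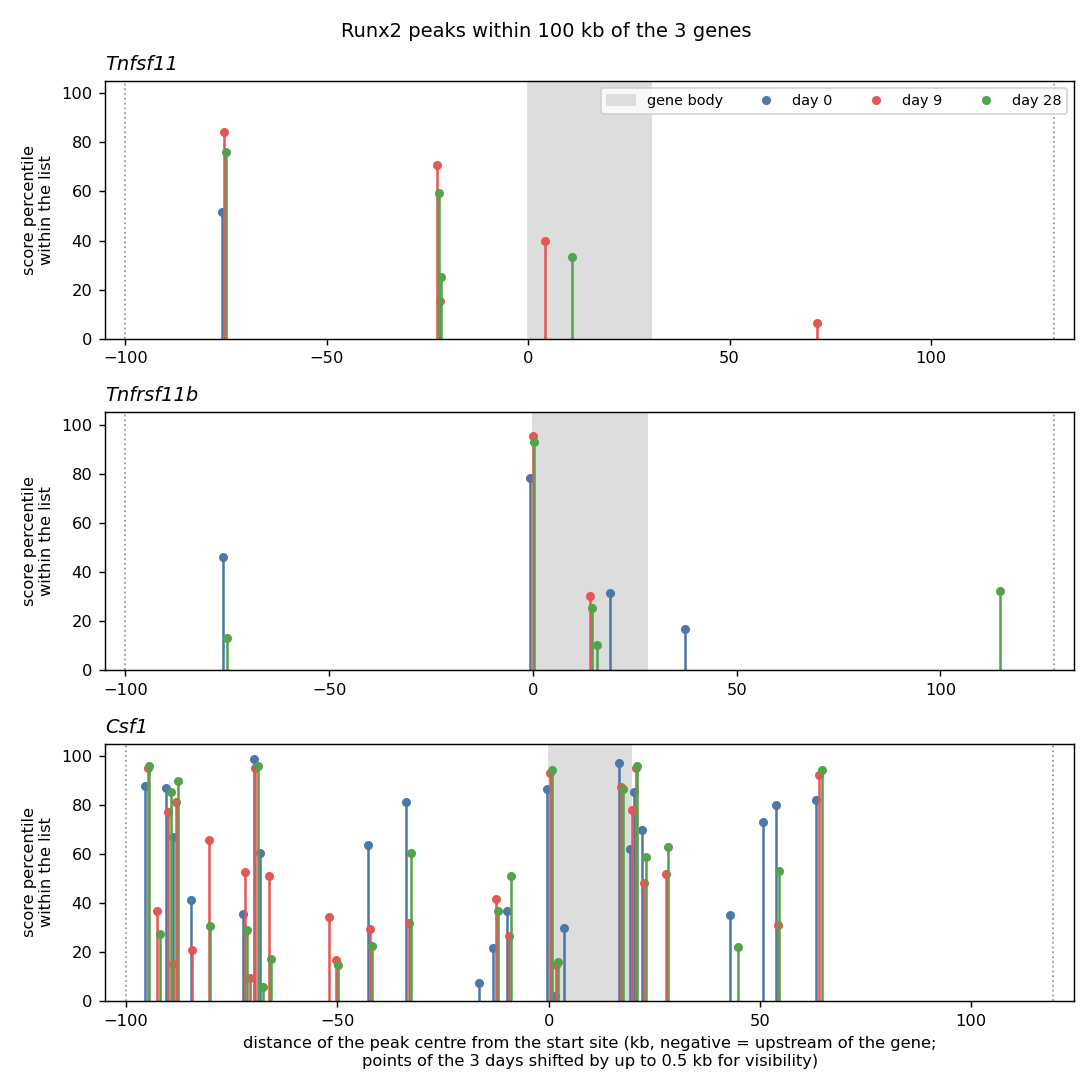
Runx2 peaks in the windows of the 3 genes. The x axis is the distance of the peak centre from the start site in kb, the y axis is the score percentile within the list of that day, grey marks the gene body and dotted lines the window edges. Tnfsf11 has its highest peaks 75.4 kb upstream, Tnfrsf11b at its start site, and Csf1 has peaks across both flanks.

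The median protein-coding gene had 4 peaks in its window at day 0, 8 at day 9 and 6 at day 28. Csf1 had more peaks than 99.6% of the genes at day 0, 90.3% at day 9 and 96.9% at day 28. Tnfsf11 stood below the median gene, with more peaks than 19.5%, 33.0% and 36.2% of the genes at days 0, 9 and 28. Tnfrsf11b equalled the median gene at day 0 and stood below it on the later days, with more peaks than 47.8%, 18.5% and 43.0% of the genes. Windows of neighbouring genes overlap, so these percentages describe the genome and are not tests.

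**Figure D2:**
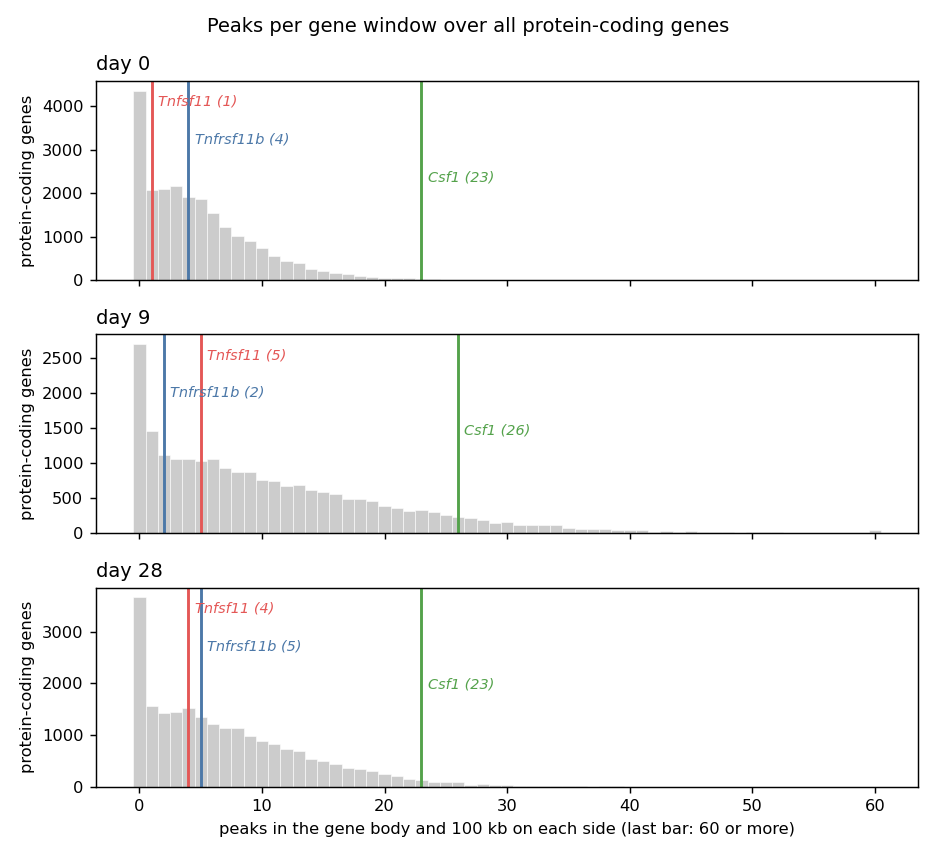
Number of protein-coding genes (y axis) by the number of Runx2 peaks in the gene body and 100 kb on each side (x axis), 1 panel per day, with lines at the 3 genes. Csf1 lies in the upper tail, with 23, 26 and 23 peaks, and Tnfsf11 and Tnfrsf11b lie at or below the median of 4, 8 and 6.

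Within the gene body, Tnfsf11 had no peak at day 0 and 1 peak each at days 9 and 28. Tnfrsf11b had 2, 2 and 3 peaks and Csf1 had 5, 4 and 4. Among protein-coding genes, 48.9% had a body peak at day 0, 62.4% at day 9 and 57.1% at day 28. Csf1 had more body peaks than 97.7%, 87.2% and 92.5% of the genes on the 3 days, in the shortest of the 3 gene bodies. On each day 1 of these peaks lay across the 3′ end of the gene with its centre outside. By peak centre Csf1 had 4, 3 and 3 body peaks, a count not made over all genes. Most of the Csf1 peaks lay outside the gene body, with 12, 17 and 14 peaks upstream and 6, 5 and 5 downstream.

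**Figure D3:**
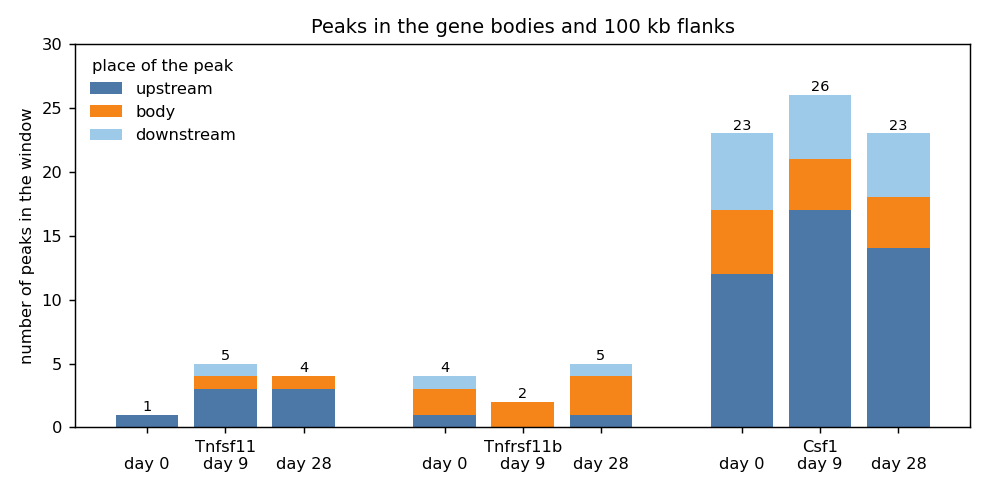
Number of peaks (y axis) in the upstream flank, gene body and downstream flank of each gene at days 0, 9 and 28, with the total over each bar. Csf1 totals are 23, 26 and 23, against 1 to 5 for the other genes.

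No Runx2 peak of any day overlapped the start site of Tnfsf11, the gene for the osteoclast differentiation factor itself. Its most prominent region lay 75.4 kb upstream, at chr14:78782800-78783651, and was the only region of the window with a peak on all 3 days. The scores were 282.28 at day 0, 1237.31 at day 9 and 906.47 at day 28, at percentiles 51.65, 84.06 and 75.90. Among peaks over 10 kb from any start site, the percentiles were 55.97, 89.84 and 85.99. The region stood near the middle of the day 0 list and higher in both later lists, and a higher percentile at day 9 than at day 0 was usual, found in 74.3% of the series' regions with a peak on all days. It held TGTGGT at 2 places, the nearer of which was 172 bp from the centre of the day 9 peak.

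A pair of adjoining regions lay about 22 kb upstream of Tnfsf11 and had peaks at days 9 and 28 but not at day 0. The farther one, at chr14:78730137-78730961, 22.7 kb upstream, scored 588.06 at day 9 and 463.7 at day 28 (percentiles 70.68 and 59.54). The nearer one, at chr14:78729558-78730131, 22.0 kb upstream, scored 124.34 and 166.34 (percentiles 15.52 and 25.10). Neither held TGTGGT, and the nearer one held TGCGGT once, 46 bp from the centre of its day 28 peak.

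The remaining Tnfsf11 peaks were each called on a single day and in the lower part of its list. At chr14:78703448-78703964, 4.1 kb into the gene and intronic in both transcripts, a day 9 peak scored 200.28 (percentile 39.74). Of the 201 bases at its centre, 78.1% lay in uninterrupted CA dinucleotide repeats of at least 10 bases. The part of this repeat in the call was not tested. The region also held 1 TGTGGT, 204 bp from the peak centre. At chr14:78696985-78697642, 10.5 kb into the gene and intronic in both transcripts, a day 28 peak scored 204.0 (percentile 33.24). This intronic region held 4 TGTGGT sequences, 1 of them 19 bp from the centre. The last peak, 71.7 kb downstream of the start site and given to account for all peaks of the gene, had a day 9 score of 108.67 (percentile 6.31), close to the minimum of 100. With a p-value of 1e-50 required, Tnfsf11 kept 2 peaks at day 9, 1 at day 28 and none at day 0, and none in its gene body.

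Tnfrsf11b, which encodes the RANKL decoy, showed the reverse arrangement, with its highest region at the start site. The region at chr15:54109531-54111155 covered the promoter, exon 1 and part of intron 1 and had a peak on all 3 days. The scores were 583.21 at day 0, 3100 at day 9 and 2308.36 at day 28, at percentiles 78.16, 95.2 and 92.88. Peaks over start sites score high in general, and among them the percentiles were 74.36, 87.07 and 82.77. TGTGGT occurred at 2 places in the region, one in the promoter, its first base 190 bp before the start site, and the other beginning 231 bp after it. They lay 194 and 227 bp from the centre of the day 9 peak.

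The other Tnfrsf11b regions had low scores and were less regular in time. A region in intron 1, 13.9 kb into the gene (chr15:54095935-54096302), scored 160.7 at day 9 and 167.78 at day 28 (percentiles 30.05 and 25.42). Intron 1 also held a day 28 peak 15.2 kb into the gene (chr15:54094613-54095031, score 120.83, percentile 10.09), and intron 2 held a day 0 peak 19.5 kb into the gene (chr15:54090051-54090941, score 182.2, percentile 31.57). In the flanks, a region 75.5 kb upstream (chr15:54185168-54185924) had peaks at day 0 and day 28 but not at day 9, with scores of 247.45 and 127.68 (percentiles 45.96 and 12.97). It held 3 TGTGGT sequences, 1 of them 6 bp from the centre of the day 0 peak, and its nearest start site was that of Gm5215. Downstream, a day 0 peak 37.7 kb from the start site (chr15:54071885-54072717) scored 135.5, at percentile 16.77. A day 28 peak 114.1 kb from the start site (chr15:53995656-53996218) scored 199.43, at percentile 32.36. With a p-value of 1e-20 required, the start-site peak was left as the single Tnfrsf11b peak of days 9 and 28, and a second peak was left at day 0.

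At Csf1, the start site and the end of the gene both carried high peaks on all days. The start-site region at chr3:107562507-107563796 covered 4 of the annotated start positions and scored 795.33, 2424.58 and 2563.41 at days 0, 9 and 28 (percentiles 86.38, 92.99 and 94.11). Among peaks over start sites the percentiles were 85.52, 80.53 and 85.61. A TGTGGT lay 38 bp from the centre of its day 28 peak. The region 17.2 kb into the gene, at chr3:107544915-107547422 over intron 8 and the untranslated exon 9 of the longest transcript, had its highest percentile at day 0. It scored 1886.39, 1535.51 and 1524.98, at percentiles 97.19, 87.25 and 86.51, and held TGTGGT at 2 places, 59 and 152 bp from the centre of the day 0 peak. Its day 0 peak was 2508 bp wide, against 670 bp at day 9 and 814 bp at day 28. Day 0 peaks were wider in the whole series too, with median widths of 917, 554 and 763 bp at days 0, 9 and 28.

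A region across the 3′ end of Csf1, at chr3:107542115-107544048, was called as 2 peaks at days 0 and 9 and as 1 peak of 1897 bp at day 28. Its highest scores were 752.39, 3100 and 3100, at percentiles 85.11, 95.2 and 95.96. At days 0 and 9 these were the scores of the peak just past the gene end. The other peak, which touched the gene, scored 367.47 at day 0 and 866.2 at day 9 (percentiles 62.04 and 78.08). The remaining regions that touched the gene were weak. Intron 1 held a region 2.0 kb from the start site (chr3:107560838-107561970) with scores of 104.0, 122.9 and 135.77 on the 3 days, at percentiles 2.05, 14.85 and 15.88. A day 0 peak 4.2 kb into the gene, over exon 2 and intron 2 (chr3:107558740-107559599), scored 175.42, at percentile 29.83.

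The Csf1 flanks held 25 of its 30 regions, 18 upstream and 7 downstream. The upstream flank was densest at its far end, where 11 regions lay between 66.2 and 94.9 kb from the start site. This stretch of 29.6 kb held 3.72 regions per 10 kb, against 0.255 per 10 kb over the whole genome, and was chosen after its values were seen. It carried 7, 11 and 9 peaks on days 0, 9 and 28, and 5 of the 11 regions had a peak on all 3 days. Within it, the region 69.3 kb upstream at chr3:107632209-107633171 scored 2474.58, 3100 and 3100, at percentiles 98.58, 95.2 and 95.96, the highest day 0 percentile of all 28 member peaks. Its central sequence held 1 TGTGGT and 1 TGCGGT, 53 and 40 bp from the centre. The region 94.9 kb upstream at chr3:107657667-107658884 scored 842.04, 3100 and 3100, at percentiles 87.6, 95.2 and 95.96, and held 3 TGTGGT sequences, none of them within the printed window.

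For all 11 regions of this stretch the nearest protein-coding start site was not that of Csf1 but that of Eps8l3, a gene outside the window that was looked up after the values were seen. On the downstream side, the highest flank region, 64.0 kb from the Csf1 start site at chr3:107498667-107500079, lay over the start site of Ahcyl1. It scored 663.58, 2274.12 and 2583.15, at percentiles 81.97, 92.36 and 94.19. Counting peaks by their nearest start site left Csf1 with 12 of 23, 13 of 26 and 11 of 23 peaks at days 0, 9 and 28. Peak position alone does not assign a peak to a gene, and which of the genes the shared regions act on was not tested.

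The window edge at 100 kb fell between regions of unequal rank at Csf1. The last region inside it upstream was the one at 94.9 kb, and the first outside lay 106.7 kb from the start site, with a day 9 peak alone that scored 120.01 (percentile 13.36). Downstream of Csf1, the first region outside the window, 129.0 kb from the start site, had peaks on all days at percentiles 69.91, 79.73 and 78.26. At Tnfrsf11b, a region 157.7 kb downstream of the start site, 29.8 kb past the edge, reached percentiles 57.90, 87.72 and 76.76. Upstream of Tnfrsf11b, the first region outside lay 155.1 kb from the start site. It had a day 28 peak alone that scored 104.47 (percentile 2.6). At Tnfsf11, the first region outside lay 124.8 kb upstream and had a day 9 peak at percentile 17.79. These regions past the edges fall outside the naming rule and are given because each lies nearest to its edge.

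Over the 3 windows, 18 of the 43 regions (41.9%) had a peak on all 3 days, against 27.4% of the regions of the series. Of these 18, Csf1 held 16, and Tnfsf11 and Tnfrsf11b held 1 each. A further 8 regions had peaks at days 9 and 28 (18.6%, against 21.1% in the series), 2 at days 0 and 28 (4.65%, against 2.06%) and 1 at days 0 and 9 (2.33%, against 1.69%). Peaks of a single day made up 6 regions at day 0 (14.0%, against 5.60% in the series), 4 at day 9 (9.30%, against 34.5%) and 4 at day 28 (9.30%, against 7.59%). By gene, 2 of 6 Tnfsf11 regions, 0 of 7 Tnfrsf11b regions and 2 of 30 Csf1 regions had a day 9 peak alone. Few regions at Csf1 and Tnfrsf11b were thus specific to day 9, which supplies the largest single-day class of the series. The shares rest on few regions that lie side by side at 3 loci.

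The percentile of a region within its list could be followed where it had a peak on all days. From day 0 to day 9, 10 of the 18 regions had a higher percentile, against 74.3% of the 18584 such regions in the series. From day 9 to day 28, 12 of the 18 had a higher percentile, against 34.2% in the series. The tied score of 3100 sets part of these counts, since it has another percentile on each day and a region above percentile 95.2 at day 0 cannot rank higher at day 9 with it. The Csf1 regions 69.3 and 94.9 kb upstream and at the 3′ end scored 3100 on both later days and count among the 12 for this reason alone. With the 4 regions at 3100 left out, chosen after the values were seen, 7 of 14 had a higher percentile at day 9 than at day 0 (74.6% in the series) and 9 of 14 at day 28 than at day 9 (29.3% in the series). These 9 were Csf1 regions, of 13 at that gene, and the remaining region was the one 75.4 kb upstream of Tnfsf11, with a lower percentile at day 28 than at day 9. The Csf1 regions 33.2 kb upstream and 54.2 kb downstream fell and then rose. They went from percentiles 81.12 and 80.12 at day 0 to 31.70 and 31.03 at day 9 and 60.57 and 53.12 at day 28. Both fall outside the naming rule and were chosen after their values were seen.

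**Figure D4:**
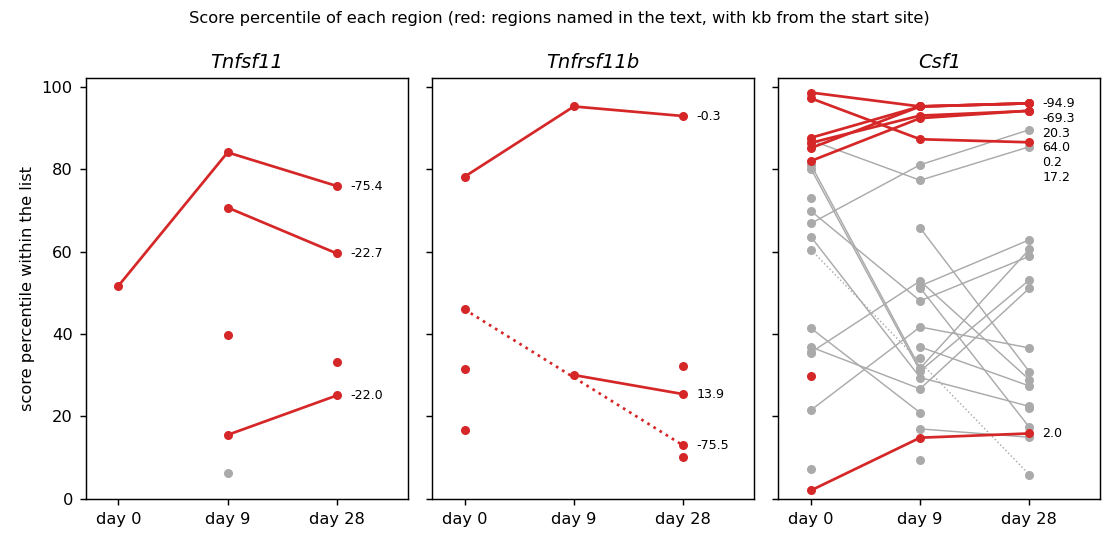
Score percentile within the list of each day (y axis) for every region, by gene. Red marks regions named by rule, labelled with kb from the start site where they have peaks on at least 2 days (labels are set apart to be legible), grey marks the others, and dotted lines pass over a day with no peak. The Tnfsf11 region at -75.4 runs from 51.65 to 84.06 and 75.90.

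The core sequence TGTGGT was looked for on both strands within 50 bp of each peak centre. It was found in 7 of the 28 member peaks at day 0 (25.0%, exact binomial 95% interval 10.7% to 44.9%), in 10 of 33 at day 9 (30.3%, 15.6% to 48.7%) and in 13 of 32 at day 28 (40.6%, 23.7% to 59.4%). Over all peaks the shares were 16.0%, 25.3% and 20.9% at days 0, 9 and 28. The intervals cover counting error only, and the same regions recur on several days. Csf1 supplied 6, 10 and 9 of the peaks with the sequence, Tnfrsf11b 1, 0 and 3, and Tnfsf11 0, 0 and 1. Anywhere in the region, TGTGGT occurred in 21 of 30 Csf1 regions, 5 of 7 Tnfrsf11b regions and 4 of 6 Tnfsf11 regions. These 30 of 43 regions (69.8%, median width 825 bp) compare with 64.0% of all regions of the series (median width 702 bp).

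Further short sequences were rare at the peak centres of the 3 genes. TGCGGT, which runt-domain factors also bind, was found in 1, 1 and 2 member peaks at days 0, 9 and 28. These were 3.57%, 3.03% and 6.25% of the member peaks, against 3.77%, 3.83% and 4.07% of all peaks. TGANTCA (N is any base), a loose form of the sequence bound by AP-1, was found in 0, 3 and 2 member peaks, all at Csf1. These were 0%, 9.09% and 6.25% of the member peaks, against 6.07%, 3.69% and 4.63% of all peaks. TGACGTCA, the cAMP response element, was found in 1 peak of the Csf1 window at day 0 (3.57% of the member peaks) and in none later. Over all peaks the shares were 0.491%, 0.256% and 0.307%. That peak lay at the Ahcyl1 start site, 64.0 kb downstream, and the same element was inside the day 9 and day 28 peaks there, farther from their centres. Some of these sequences overlapped one another, as did TGTGGT and TGANTCA in a region 50.3 kb upstream of Csf1 that was picked after its values were seen. The search describes the letters in the window and not the binding of a factor.

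Genes around these 3 signals were counted from lists of osteoblast-made signals, osteoblast receptors and osteoclast-lineage genes. Of 10 other osteoblast-made signals, 7 had a body peak at day 0, 8 at day 9 and 9 at day 28. Among all protein-coding genes, 48.9%, 62.4% and 57.1% had one on these days. Il34, which encodes the alternative ligand of Csf1r, had 3, 5 and 4 body peaks, the best at percentiles 99.03, 95.2 and 91.95. Sema3a, an osteoblast-derived inhibitor of resorption, had 7, 8 and 7 body peaks in a long gene, the best at percentiles 83.03, 75.68 and 67.59. Il6, a cytokine that acts on RANKL production, had 1 body peak on each day, at percentiles 90.08, 83.91 and 64.48. Il11, Lif, Ccl2, Cxcl12, Wnt5a and Efnb2 had a body peak on at least 1 day. Tnfsf10, named outside the rule to complete the list, had no body peak on any day.

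Of 8 osteoblast receptors for hormones and cytokines that act on Tnfsf11, 5 had a body peak at day 0 and 6 at days 9 and 28. The shares over all protein-coding genes were again 48.9%, 62.4% and 57.1% at days 0, 9 and 28. Vdr, the vitamin D receptor, had 5, 6 and 4 body peaks and 26, 45 and 34 in its window, the best body peak at percentiles 97.64, 81.50 and 79.28. Pth1r, the parathyroid hormone receptor, had 3, 11 and 6 body peaks, the best at percentiles 76.16, 95.2 and 95.96. Il11ra1, which encodes an interleukin 11 receptor chain, had 6, 13 and 10 body peaks. Il6ra and Lifr had body peaks on all 3 days, and Ptger4 had them at days 9 and 28. Il6st and Ptger2, named outside the rule to complete the list, had no body peak on any day.

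Of the 11 osteoclast-lineage genes found in the annotation (of 12 listed), 4 had a body peak at day 0, 7 at day 9 and 6 at day 28. Tnfrsf11a, the gene for RANK, had no body peak on any day and 2, 2 and 0 peaks in its window; it falls outside the naming rule and was looked up for its role. Csf1r, the receptor of M-CSF, had 0, 2 and 1 body peaks, the best at percentiles 29.33 and 38.97. Nfatc1, the transcription factor that RANKL induces in osteoclast precursors, had 4, 16 and 7 body peaks, the best at percentiles 93.05, 95.2 and 86.17. Lgr4, a further receptor of RANKL, had 2, 4 and 4 body peaks. Traf6 had a body peak on each day, at percentiles 54.04, 72.87 and 73.36. Atp6v0d2 also had 1 on each day, but near the bottom of the lists, at percentiles 3.75, 7.16 and 2.38. Acp5 had body peaks at days 9 and 28, the best at percentiles 81.66 and 66.08, and Dcstamp had 1 at day 9, at percentile 10.03. Ctsk, Oscar and Calcr, named outside the rule to complete the list, had no body peak on any day. Body peaks were thus found in all 3 lists, at shares to be read against 48.9%, 62.4% and 57.1% of all protein-coding genes at days 0, 9 and 28.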

How the data were processed

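The authors mapped reads to mm9 with Bowtie (version 0.12.8; base calls by CASAVA 1.6), pooled 2 replicate libraries per day, called peaks against pooled day 9 input with MACS (version 1.4.1), filtered them at a p-value of 1e-10, and deposited 1 list per day, with a score for each peak (−log10 of the p-value, multiplied by 10). The study sequenced day 0 more deeply than the later days. Reads and signal tracks were not analysed here.

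Genes were taken from GENCODE M1, annotated on NCBIM37, the same assembly. Positions are counted from 1. A peak that touches the gene body counts for the body alone. Motifs were searched in NCBIM37 around peak centres. No test was made. Shares have exact binomial (Clopper-Pearson) 95% intervals, which cover counting error only. The procedures were tested on simulated data.

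The members, gene lists and alternatives were chosen with earlier results of these data known. Regions named are those that touch a gene body or lie within 1 kb of a member's start site, and in each gene's flanks the 3 with the highest percentile; others are said to be exceptions. Other genes named are listed genes with a body peak and genes in the windows, apart from those said to be exceptions. Computations ran in Python 3.11.15 (SciPy 1.17.1, NumPy 2.4.6), with plots by Matplotlib 3.10.9.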

Additional observations from a re-analysis of the deposited data

How the results depend on the processing

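No paired analysis was possible because replicates were pooled before peaks were called, and no replicate could be left out. Values follow the order Tnfsf11, Tnfrsf11b, Csf1, each at days 0, 9 and 28, and only those that moved by over 1.5 times are given. At a p-value of 1e-50, window counts were 0, 2 and 1, then 1, 1 and 1, then 9, 9 and 9. At 1e-20 they were 3 for Tnfsf11 at day 9, 2, 1 and 1 for Tnfrsf11b, and 15 and 14 for Csf1 at days 9 and 28. With the 25457 top-scoring peaks of each list, they were 2 and 2 for Tnfsf11, 1 and 1 for Tnfrsf11b, and 10 and 13 for Csf1 at days 9 and 28. With flanks of 50 kb, they were 0 for Tnfsf11 at day 0, 3 for Tnfrsf11b at day 28, and 13 and 13 for Csf1 at days 9 and 28. The choice of peak centres and the joining of peaks closer than 500 bp moved no window count that far.

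For the gene bodies, Tnfsf11 had 0 and 0 peaks at days 9 and 28 at 1e-50 and with equal lists. Tnfrsf11b had 1, 1 and 1 at 1e-20 and at 1e-50, 1 and 1 at days 9 and 28 with equal lists, and 1 at day 0 by peak centre. Csf1 had 3 at 1e-20 and 2 at 1e-50, both at day 0. Regions with a peak on all days numbered 11 at 1e-20 and 10 with equal lists. At 1e-20, regions of days 0 and 9 numbered 0, of days 9 and 28 numbered 3, and of day 28 alone 1. With equal lists, 4 were of days 0 and 28, 0 of days 0 and 9, 1 of days 9 and 28, 1 of day 28, 1 of day 9 and 13 of day 0. The single-day classes thus depend on list length, with 13 day 0 regions against 6 once the longer lists were shortened. The classes of the whole series were not counted at 1e-20 or with equal lists. Whether the windows differ from the series at these settings is therefore unknown. Requiring an overlap of 50% left all 7 classes as they were. TGTGGT anywhere in the peak was found in 71.4%, 66.7% and 68.8% of member peaks at days 0, 9 and 28, and within 150 bp of the centre in 60.7% at day 0. The shares over all peaks were not computed for these wider searches, so these values have no background and cannot be read as an excess. With TGCGGT added, the 3 shares stayed inside their intervals. A single list per day limits every comparison between days.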
